A study of Sorghum bicolor and Setaria italica and Zea mays with 20 samples.

Results

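In leaves of Z. mays, 444 accessible regions stood alone, with no other listed region within 100 kb on either side. They were chosen by position only. The DNaseI-hypersensitive sites (DHSs) listed for bundle-sheath strands and for whole leaves were merged on chromosomes 1 to 10 wherever they overlapped by at least 1 bp, and a merged region, called a union interval here, was taken as isolated when both of its edge-to-edge distances reached 100 kb. The 444 isolated intervals made up 0.798% of 55665 union intervals and covered 0.855 Mb. They hold 403 of 48547 bundle-sheath DHSs and 296 of 43539 whole-leaf DHSs. The series as a whole lists 281868 DHSs from 4 grasses. The isolated intervals were set beside 36792 union intervals (66.1%) that had a neighbour within 10 kb, called near intervals. Another 18427 intervals lay between these limits, and 2 at a chromosome end had only 1 distant neighbour. Distances, numbers per length and gaps therefore describe how the isolated intervals were chosen, and no test was made on any measure of the same peak calls.

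DNaseI-seq was carried out on nuclei of Z. mays seedlings, with 2 samples of bundle-sheath strands and 2 of whole leaf, all harvested 18 d after germination and a few hours into the light period. The bundle-sheath strands were obtained mechanically, by shearing leaves in a blender and filtering. The whole-leaf samples still contain bundle-sheath cells, and each sample pools leaves of many seedlings. The deposited lists combine the replicates of a tissue, so no value below has a replicate error, and they carry no read depth.

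DNaseI cuts most readily where nucleosomes are absent or displaced, and DHSs for this reason mark promoters, enhancers and other regulatory DNA. Within a DHS, a protein bound to DNA shields a short stretch from the enzyme, and such stretches are called digital genomic footprints (DGFs). In Z. mays much of the genome between genes consists of transposable elements, genes become sparse towards the centromeres, and regulatory elements are known to lie far from the gene that they control. Bundle-sheath cells surround the veins and, in this C4 species, fix carbon that is delivered to them by the mesophyll.

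The isolated intervals lay mostly a little beyond the limit that defined them. The nearer neighbour was a median of 124 kb away, with quartiles of 111 and 152 kb and a maximum of 762 kb. The farther neighbour was a median of 193 kb away, with a maximum of 1237 kb. Only 46 isolated intervals had at least 200 kb on both sides. The surroundings were not empty on a larger scale, since a median of 14.5 other union intervals lay within 500 kb on each side of an isolated interval, against 30 for near intervals.

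Most of the long gaps in these lists did not border an isolated interval. Between neighbouring union intervals of Z. mays the median gap was 19.6 kb. A total of 4335 of 55655 gaps (7.79%) spanned 100 kb or more, and together these took up 704 Mb, or 34.2% of the 2059 Mb covered. Of these long gaps, 809 bordered an isolated interval and 79 had one at both ends. Most isolated intervals were therefore single. Among 365 runs, 305 held 1 isolated interval, 46 held 2, 10 held 3 and 4 held 4 or more, so that 139 isolated intervals followed one another.

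The longest run held 5 isolated intervals within 0.517 Mb of chromosome 1. Its first member, from 123467891 to 123468133, was only 243 bp wide and was listed in both tissues without a DGF. The third, from 123777165 to 123780615, was 3451 bp wide, was also listed in both tissues and carried 5 bundle-sheath and 7 whole-leaf DGFs. The other members of the run were listed in bundle sheath only, with 0, 0 and 2 DGFs. A run of 4 on chromosome 4, between 139221847 and 139770761, was made up differently. There, 3 members were listed in whole leaf only, none of the 4 had a DGF, and the member listed in both tissues had a fold enrichment of 6.61 in bundle sheath and 8.09 in whole leaf. Over all 79 pairs of isolated intervals in a row, 39 pairs were of the same tissue class (49.4%), and in 20 of these both were listed in both tissues.

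Isolated intervals were concentrated in the inner part of most chromosomes. The middle 20% of chromosome length held 143 isolated intervals (32.2%, 95% Wilson interval 28.0 to 36.7), against 14.3% of near intervals (14.0 to 14.7). The outer 40%, counting 20% at each end, held 18.9% of isolated (15.5 to 22.8) and 49.5% of near intervals. The distribution was also lopsided. The first 50% of chromosome length held 69.6% of isolated intervals and 42.2% of near intervals. The stretch between 30 and 40% of the length alone held 96 isolated intervals (21.6%), and the last 10% held 6. Because an isolated interval needs few neighbours, its position follows from where listed DHSs are sparse.

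**Figure D1:**
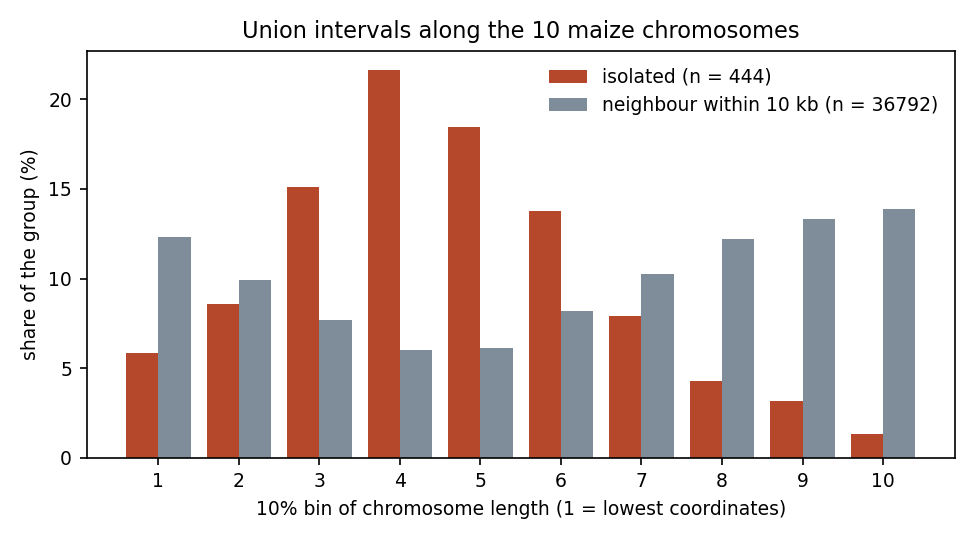
Share of each group of union intervals in each 10% bin of chromosome length, summed over the 10 chromosomes, with isolated intervals in the left bar of each pair and intervals with a neighbour within 10 kb in the right bar. Isolated intervals peak in bin 4, with 21.6%, where near intervals are at 6.03%, and drop to 1.35% in bin 10, where near intervals are at 13.9%.

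Chromosomes differed in this respect. The share in the middle 20% was higher for isolated than for near intervals on 7 of the 10 chromosomes, and the isolated share ran between 8.11% on chromosome 8 and 53.8% on chromosome 1. On chromosomes 6, 8 and 10 it was lower than that of near intervals. On chromosome 6 the median position of the isolated intervals was 23.0% of chromosome length, and on chromosome 8 it was 26.5%, so on both they gathered nearer to the end with the lowest coordinates. Their number ran between 24 on chromosome 10 (0.160 per Mb) and 61 on chromosome 3 (0.263 per Mb).

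Isolated intervals were less often listed in both tissues, and this came with a larger share listed in bundle sheath alone. Both tissues listed 240 isolated intervals (54.1%, 49.4 to 58.6), against 61.6% of near intervals (61.1 to 62.1) and 61% of all union intervals. Bundle sheath alone listed 155 (34.9%, 30.6 to 39.5), against 21.6% of near intervals and 23.9% of all. Whole leaf alone listed 49 (11.0%, 8.45 to 14.3), against 16.8% of near intervals and 15.1% of all. The ratio of intervals listed in bundle sheath only to those listed in whole leaf only was thus 3.16 among isolated intervals and 1.29 among near intervals. The intervals in between were at 60.0% for both tissues, 28.2% for bundle sheath only and 11.7% for whole leaf only.

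The direction was repeated over most of the genome. The share listed in both tissues was lower among isolated intervals on 9 of 10 chromosomes, with a range of 44.7 to 70.8% against 58.6 to 63.8% for near intervals, and the bundle-sheath-only share was higher on 9. Chromosome 10, with the fewest isolated intervals, was the exception to both. The intervals quoted cover counting error only, and since neighbouring regions and the 2 lists are not independent, the true uncertainty is wider. The bundle-sheath list was also the longer one. With it shortened to the length of the whole-leaf list by fold enrichment, a setting chosen after seeing the data, 55.0% of isolated and 59.3% of near intervals were shared. When only the 50% of each list with the higher fold enrichment was kept, isolation was redefined on the remaining DHSs, and the difference turned round, with 54.6% of isolated and 53.1% of near intervals listed in both tissues.

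Sharing went with width in both groups. An interval listed in both tissues is the union of DHSs of both lists, so its width and its sharing are not independent measures. Among intervals of up to 500 bp, 13.3% of isolated and 15.7% of near intervals were listed in both tissues. The values were 34.5 and 37.4% for isolated and near intervals over 500 and up to 1000 bp, and 50.0 and 55.0% for those of up to 1500 bp, in each case with the near value inside the 95% interval of the isolated share. Above that width the isolated share was the higher one. For intervals of up to 2000 bp it was 73.8% (58.9 to 84.7), against 65.1% of near intervals, a value again inside the isolated interval. Over 2000 bp it was 88.7% (81.9 to 93.2), against 79.2% (78.6 to 79.9) of near intervals. In the band over 2000 bp isolated intervals were therefore shared more often than near intervals. That band has no upper limit, and 9.23% of all isolated against 5.13% of all near intervals exceeded 5000 bp. Widths within the band were thus not matched. At the narrow end, 39.6% of isolated and 23.4% of near intervals were at most 1000 bp wide.

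Width itself set the groups apart. The median isolated interval was 1185 bp wide (95% interval of the median 1082 to 1304), against 1741 bp (1724 to 1759) for near intervals, and it was narrower on 10 of 10 chromosomes. The difference was present in each tissue class. Intervals listed in both tissues had medians of 1764 bp when isolated and 2197 bp when near, those listed in bundle sheath only 801 and 1133 bp, and those listed in whole leaf only 805 and 1240 bp. With the 50% of each list with the higher fold enrichment, the order turned here too, at 1982 bp for isolated and 1856 bp for near intervals.

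The isolated intervals were spread more widely in width than this median shows. At the broad end, 41 of them (9.23%) exceeded 5000 bp, against 5.13% of near intervals. Of these 41, 40 were listed in both tissues, 0 lacked a DGF, and together they carried 730 of the 1722 DGFs found in isolated intervals (42.4%). Chromosome 4 held 8 of them and chromosome 8 held 7, while chromosome 1 held 0.

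**Figure D2:**
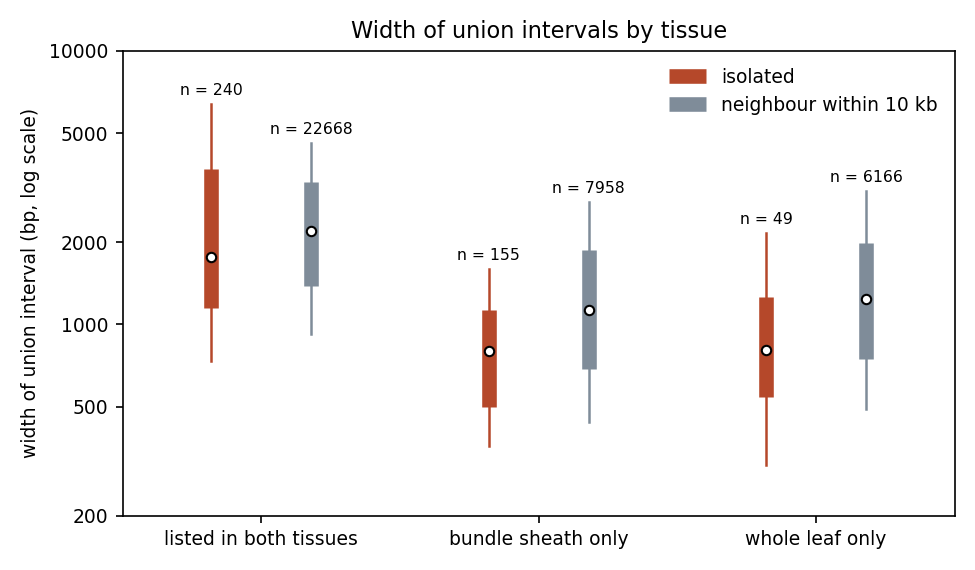
Width of union intervals in bp on a log scale by the tissue that listed them, with isolated intervals to the left of intervals with a neighbour within 10 kb. Points are medians, thick bars run over the quartiles and thin lines over the 10th to 90th percentiles; isolated intervals have the lower median in each class, at 1764 against 2197 bp, 801 against 1133 bp and 805 against 1240 bp.

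Although narrower, isolated DHSs were over-represented at the top of both lists by fold enrichment, the ratio of DNaseI reads at the region to a background that the peak caller writes in column 7. It ranks DHSs within a list and was not compared between lists. In bundle sheath the median was 8.50 for isolated DHSs (95% interval of the median 8.03 to 8.97) and 8.03 for near DHSs, so the interval reached down to the near value. These medians correspond to rank percentiles of 56.6 and 48.5, where a higher percentile is a higher fold enrichment. In whole leaf the median was 10.8 for isolated (9.89 to 11.2) and 9.23 for near DHSs, at rank percentiles of 63.5 and 46.7. Intervals just short of the limit, at 90 to 100 kb, had medians of 8.50 in bundle sheath and 10.3 in whole leaf. The top 10% of the bundle-sheath list took in 72 isolated DHSs (17.9%, 14.4 to 21.9), against 7.64% of near DHSs, and the top 10% of the whole-leaf list took in 62 (20.9%, 16.7 to 25.9), against 7.74% of near DHSs. The lowest 10% of the bundle-sheath list held 9 isolated DHSs (2.23%), against 11.9% of near DHSs, while the 2 bins above it held 14.4% and 12.9% of isolated DHSs, so the isolated values were not shifted evenly. For the top 10%, isolated DHSs had the higher share on 9 chromosomes of 10 for bundle sheath and on 10 of 10 for whole leaf.

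**Figure D3:**
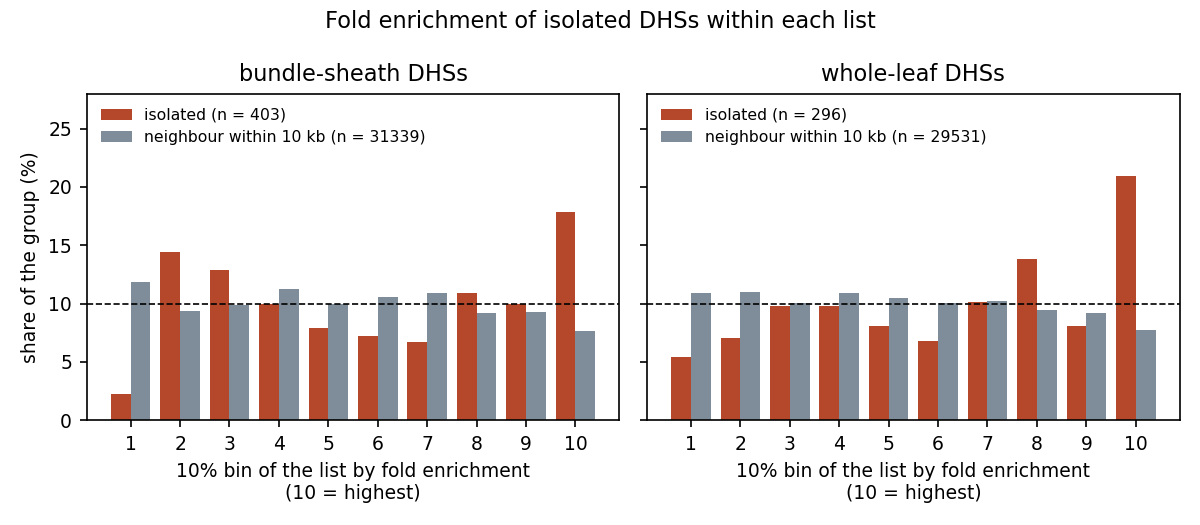
Share of each group of DHSs by 10% bin of its own list, ranked by fold enrichment (bin 10 is the highest), for bundle sheath on the left and whole leaf on the right; the left bar of each pair is isolated DHSs, the right bar DHSs of intervals with a neighbour within 10 kb, and the dashed line marks 10%. In bin 10 isolated DHSs are at 17.9% in bundle sheath and 20.9% in whole leaf, whereas the DHSs of near intervals are at 7.64 and 7.74%.

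The high values belonged to shared regions. In isolated intervals listed in both tissues the median fold enrichment in bundle sheath was 10.1, against 8.50 in shared near intervals, and 28.6% against 10.2% fell in the top 10% of the list. In whole leaf the median of shared DHSs was 11.7 when isolated and 9.91 when near, and 25.1% of isolated against 9.75% of near shared DHSs fell in the top 10%. DHSs of 1 tissue only were low in both groups. Their medians were 7.08 when isolated and 7.03 when near for bundle sheath only, and 8.09 and 7.57 for whole leaf only. In the top 10% stood 1 of 155 isolated DHSs of bundle sheath only and 0 of 49 of whole leaf only, and a count of 0 of 49 allows a share of up to 7.27% (upper Wilson limit).

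The values themselves also differed in kind. Many values were whole multiples of a single step, 0.472 in the bundle-sheath list and 0.449 in the whole-leaf list, within a tolerance of 0.0005. This held for 319 of 403 isolated bundle-sheath DHSs (79.2%, 74.9 to 82.8), against 26.4% of near DHSs, and for 209 of 296 isolated whole-leaf DHSs (70.6%, 65.2 to 75.5), against 24.6% of near DHSs. Intervals between the groups were intermediate, at 53.3% in bundle sheath and 46.1% in whole leaf. MACS2, the peak caller used, divides by the larger of a genome-wide and a local background, and whether this accounts for the steps, or for the higher fold enrichment of isolated DHSs, was not tested. Among DHSs at whole multiples, the median in bundle sheath was 8.03 in both groups, and 16.9% of isolated against 11.1% of near DHSs fell in the top 10%. In whole leaf the corresponding medians were 10.3 for isolated and 9.44 for near DHSs, with 19.6% and 9.94% in the top 10%. The DHSs of in-between intervals at whole multiples were at 15.8% in bundle sheath and 16.7% in whole leaf, both inside the 95% intervals of the isolated shares (13.2 to 21.4 and 14.8 to 25.5).

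Footprints were found less often in isolated than in near DHSs of the bundle sheath. At least 1 DGF was present in 236 of 403 isolated bundle-sheath DHSs (58.6%, 53.7 to 63.3), against 73.6% of near DHSs (73.1 to 74.1) and 71.4% of all bundle-sheath DHSs. The isolated share was the lower one on 10 of 10 chromosomes. In whole leaf the overall shares were not resolved from each other, with 159 of 296 isolated DHSs (53.7%, 48.0 to 59.3), 54.4% of near DHSs (53.9 to 55.0) and 55.8% of all whole-leaf DHSs, and the isolated share was lower on 6 chromosomes and higher on 4. The number of DGFs called also depends on read depth, which the lists do not give, so the 2 tissues were not compared in level. The study reports that DGFs in Z. mays had not reached saturation and that a Z. mays library was of low complexity. A DHS without a listed DGF, here and below, may therefore hold a footprint that was missed.

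The bundle-sheath difference was largest in DHSs listed in that tissue alone. There, 24.5% of isolated (18.4 to 31.9) and 44.8% of near DHSs (43.7 to 45.9) carried a DGF, and the density was 0.636 DGFs per kb in isolated and 1.07 per kb in near DHSs. In shared regions the groups were closer. A DGF was present in 79.8% of isolated (74.4 to 84.4) and 83.4% of near bundle-sheath DHSs of shared regions, and the density was 1.74 DGFs per kb in both. The whole-leaf DHSs of shared regions carried a DGF in 59.9% of isolated and 60.8% of near cases, at 0.879 and 0.851 DGFs per kb. Whole-leaf-only DHSs had a DGF in 22.4% of isolated (13.0 to 35.9) and 30.2% of near cases.

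Footprints were more frequent in wider isolated DHSs. In bundle sheath the share with a DGF grew with width, at 17.6% in isolated DHSs of up to 500 bp, then 40.4%, 55.2% and 75% in steps of 500 bp, and 92.2% in those over 2000 bp, while the matching near DHSs were at 26.2%, 56.4%, 70.0%, 77.7% and 87.6%. Between 500 and 1500 bp isolated bundle-sheath DHSs thus less often had a footprint than near DHSs of that width. In the other bands the near value lay inside the 95% interval of the isolated share. In whole leaf the isolated DHSs were at 10.0%, 21.1%, 48.5%, 69.0% and 80.7%, and the near DHSs at 14.8%, 32.0%, 47.9%, 56.0% and 70.2%. Only over 2000 bp did the isolated interval (72.5 to 86.9) leave out the near value. That band has no upper limit, so widths within it were not matched.

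**Figure D4:**
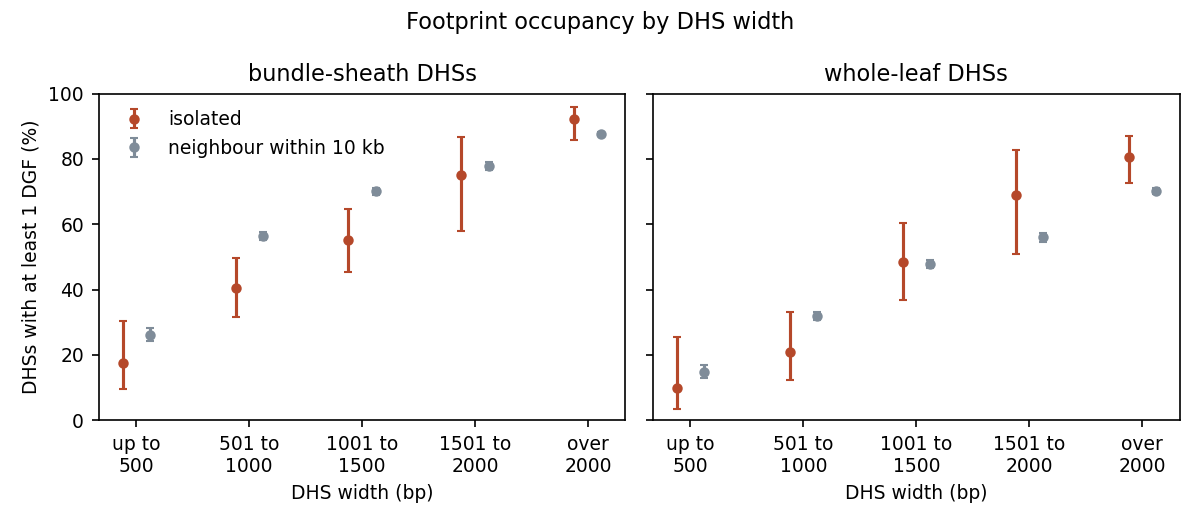
Share of DHSs that hold at least 1 DGF by DHS width in bp, for bundle sheath on the left and whole leaf on the right, with isolated DHSs drawn left of DHSs with a neighbour within 10 kb and 95% Wilson intervals as bars. Isolated DHSs of up to 1000 bp sit below near DHSs in both tissues. Those over 2000 bp sit above them, at 92.2 (85.8 to 95.8) against 87.6% in bundle sheath and 80.7 against 70.2% in whole leaf. The last band has no upper limit, so widths within it were not matched, and in bundle sheath its isolated interval includes the near value.

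The share with a footprint followed fold enrichment as well. In the lowest 25% of the bundle-sheath list by fold enrichment 24.7% of isolated and 59.3% of near DHSs had a DGF, and between 25 and 50% of the list the shares were 32.2% for isolated and 61.2% for near DHSs. Between 50 and 75% they were 73.8% for isolated and 82.7% for near DHSs, and in the highest 25% they were 91.7% and 95.2%. The gap between the groups was therefore wide in the lower part of the list and narrow at the top. Isolated DHSs were also narrower, with medians of 954 against 1435 bp in the lowest 25% and 1704 against 2062.5 bp in the highest. Per kb, isolated and near DHSs held 0.877 and 1.38 DGFs in the lowest 25%, and 1.85 and 1.94 in the highest. Width and fold enrichment were not separated here. In whole leaf the isolated and near shares were 11.7% (5.77 to 22.2) and 20.3% in the lowest 25%, and 39.0% (27.6 to 51.7) and 47.0% between 25 and 50%. Between 50 and 75% they were 50.0% (38.4 to 61.6) for isolated and 70.4% for near DHSs, and in the highest 25% 87.2% and 87.1%. Although the overall whole-leaf shares were close, isolated whole-leaf DHSs had the lower share in all but the highest 25%. Only between 50 and 75% of the list did the isolated interval leave out the near value. Median widths of isolated and near whole-leaf DHSs were, from the lowest 25% up, 865.5 and 1393 bp, 1233 and 1697 bp, 1371.5 and 1961 bp, and 2174 and 1988.5 bp. Width was not separated from fold enrichment in whole leaf either.

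Footprints were unevenly divided among the isolated intervals. No DGF of either list lay in 194 of the 444 (43.7%, 39.2 to 48.3), against 30.3% of near intervals. These 194 had a median width of 787.5 bp, and the isolated intervals with a DGF had a median of 1733 bp. At the other extreme 65 isolated intervals (14.6%) held 10 or more DGFs, against 12.8% of near intervals, and the 44 with the most held 814 of all 1722 (47.3%). The listed length of a DGF reached at most 25 bp, and 53.6% of isolated (50.7 to 56.4) and 57.3% of near bundle-sheath DGFs had that length, as did 60.4% of isolated (56.3 to 64.3) and 64.6% of near whole-leaf DGFs. The median Wellington score, which falls further below 0 the stronger a footprint is, was -7.55 for isolated and -7.52 for near DGFs in bundle sheath and -9.06 for isolated and -9.13 for near DGFs in whole leaf.

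The 240 isolated intervals listed in both tissues allow the tissues to be read at the same place. A DGF was listed in both tissues in 133 of them (55.4%), in bundle sheath only in 58 (24.2%), in whole leaf only in 10 (4.17%) and in neither in 39 (16.3%, 12.1 to 21.4). Near intervals shared by the tissues were at 56.9% for a DGF in both, 27.4% for bundle sheath only, 5.01% for whole leaf only and 10.8% for neither, and the isolated interval left out the near value for neither list only. Of the 133 isolated intervals with a DGF in both lists, 60 (45.1%, 36.9 to 53.6) held a bundle-sheath DGF that overlapped a whole-leaf DGF, against 48.2% of such near intervals. In these 133 intervals 84 of 857 bundle-sheath DGFs (9.80%, 7.99 to 12.0) overlapped a whole-leaf DGF and 86 of 519 whole-leaf DGFs (16.6%, 13.6 to 20.0) overlapped a bundle-sheath DGF, against 12.5% and 20.2% in near intervals.

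In 226 of these intervals exactly 1 DHS of each tissue was present. The bundle-sheath DHSs had a median width of 1500 bp and the whole-leaf DHSs 1552.5 bp, the overlap covered a median of 89.8% of the union, and the summits lay a median of 84.5 bp apart, with 122 pairs (54.0%) within 100 bp. The ranks in the 2 lists went together across intervals, with a Spearman rho of 0.63 over the 226 isolated and 0.58 over 21375 near intervals, given as a description since the intervals share 2 libraries per tissue and are not replicates. More DGFs were listed in bundle sheath in 141 of the 226 isolated intervals, in whole leaf in 28, and the numbers were equal in 57, against 14099, 3073 and 4203 of the near intervals. Read depth sets the number of DGFs in a list, so these counts do not compare the tissues.

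**Figure D5:**
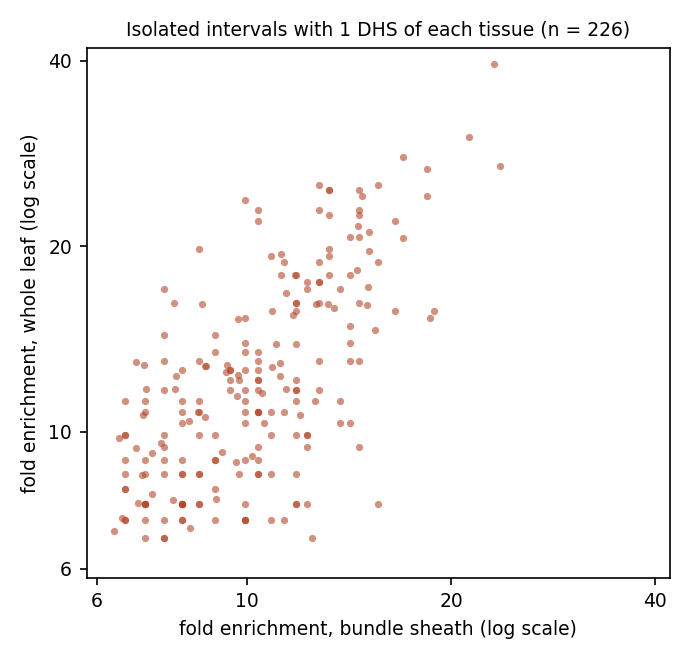
Fold enrichment in bundle sheath (horizontal, log scale) and in whole leaf (vertical, log scale) for the 226 isolated intervals with exactly 1 DHS of each tissue, 1 point per interval; values rank DHSs within a list only, so the axes have no common unit. Intervals high in one list tend to be high in the other, with a Spearman rho of 0.63.

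The most isolated interval of each chromosome showed that standing alone came with no single profile. The most isolated of all lay on chromosome 8 from 30861021 to 30861428 in the build AGPv3, with 864 kb free on its left and 762 kb on its right. It was a DHS of 408 bp listed in whole leaf only, with a fold enrichment of 7.64 and no DGF. Its right neighbour, from 31623477 to 31624298, was isolated as well, with 835 kb free beyond it. That neighbour was 822 bp wide and listed in both tissues, at fold enrichments of 11.8 in bundle sheath and 9.89 in whole leaf, and had no DGF either. No other listed region lay in this stretch of chromosome 8.

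On chromosome 4 the most isolated interval was also of whole leaf only, 308 bp wide from 164760692 to 164760999, with 475 kb free on its left and 675 kb on its right, a fold enrichment of 7.19 and no DGF. Those of chromosome 3, from 73643970 to 73645903, and chromosome 7, from 58920132 to 58921352, were listed in bundle sheath only, with 1934 and 1221 bp, the same fold enrichment of 6.61 and no DGF. Low rank and lack of a footprint were common to all of these single-tissue regions.

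The remaining most isolated intervals were listed in both tissues. Those of chromosome 1, from 266715262 to 266716921, and chromosome 10, from 31984185 to 31986170, had no DGF, with fold enrichments of 6.61 and 7.08 in bundle sheath and 9.89 and 7.64 in whole leaf. On chromosome 2 the interval from 228269053 to 228269692 was 640 bp wide, with 2 bundle-sheath DGFs, and on chromosome 5 the interval from 108245906 to 108246668 was 763 bp wide, with 1 whole-leaf DGF. On chromosome 9 the interval from 71615953 to 71617608 reached 12.7 in bundle sheath and 13.0 in whole leaf and had 3 bundle-sheath DGFs and 1 whole-leaf DGF. The one of chromosome 6 was of another kind, a region of 9799 bp from 9496241 to 9506039 that held 2 bundle-sheath DHSs of 3009 and 2402 bp and 1 whole-leaf DHS of the full width. It had 289 kb free on its left and 921 kb on its right, and carried 13 bundle-sheath and 8 whole-leaf DGFs although its fold enrichments were only 7.54 in bundle sheath and 8.06 in whole leaf.

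The isolated regions with the highest fold enrichment had DGFs in both tissues. On chromosome 5, from 103751539 to 103752702, a region of 1164 bp stood first of the isolated regions in whole leaf, at 39.5, and second in bundle sheath, at 23.1. It held 4 bundle-sheath and 2 whole-leaf DGFs, the strongest with scores of -12.8 in bundle sheath and -22.0 in whole leaf, and lay 142 kb from its nearer neighbour. The highest value in bundle sheath, 23.6, was that of a region of 1030 bp on chromosome 6, from 16980026 to 16981055, which reached 27.0 in whole leaf and held 3 DGFs in each tissue. On chromosome 4 the 761 bp from 113618448 to 113619208 stood next in bundle sheath, at 21.2, and second in whole leaf, at 30.1, with 2 DGFs in each. The next in whole leaf, on chromosome 1 from 71802755 to 71805215, had 17.0 in bundle sheath and 27.9 in whole leaf, was 2461 bp wide and held 6 bundle-sheath and 2 whole-leaf DGFs.

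The widest isolated regions carried many footprints. The widest, 10997 bp on chromosome 5 from 155449231 to 155460227, was a single bundle-sheath DHS over its whole length but a whole-leaf DHS of only 4662 bp. It carried 25 bundle-sheath and 6 whole-leaf DGFs, the largest number in any isolated interval. On chromosome 6, from 38265758 to 38275392, a bundle-sheath DHS of 9635 bp lay over whole-leaf DHSs of 1668 and 6698 bp, with 19 bundle-sheath and 9 whole-leaf DGFs. On chromosome 8, from 26348478 to 26357787, DHSs of 9028 bp in bundle sheath and 9310 bp in whole leaf held 17 and 11 DGFs. The region of 9799 bp on chromosome 6 described above was second in width, with 21 DGFs over both lists. Rank by width and by number of DGFs did not coincide, since a region of 6511 bp on chromosome 9, from 87402357 to 87408867, held 18 bundle-sheath and 10 whole-leaf DGFs, as many in sum as that of chromosome 8.

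Around the limit of 100 kb the regions did not change abruptly. The isolated interval nearest to the limit lay on chromosome 6 from 8861665 to 8862722, had its nearer neighbour at 100011 bp, was listed in both tissues and had no DGF. The interval just short of it lay on chromosome 5 from 162405726 to 162408391, had its nearer neighbour at 99986 bp, was listed in bundle sheath only and had 3 DGFs. Intervals with a nearer neighbour at 100 to 110 kb numbered 104, had a median width of 1351.5 bp and were shared in 55.8% of cases, and the 161 at 90 to 100 kb had 1311 bp and 53.4%. With larger distances the median width was 1219 bp at 100 to 125 kb, 1317 bp at 125 to 150 kb, 1130 bp at 150 to 200 kb and 931.5 bp in the 46 intervals at 200 kb or more. In the same order, 53.5%, 59.8%, 54.9% and 43.5% (30.2 to 57.8) were listed in both tissues, which is no steady fall.

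Of the 4 grasses, Z. mays had the most isolated regions in this sense. By the same rule 166 of 42434 union intervals of S. bicolor (0.391%), 7 of 46595 of S. italica and 4 of 36279 of B. distachyon, for which only whole leaf was listed, were isolated. Per Mb, Z. mays had 27.0 union intervals, S. bicolor had 64.5, S. italica had 116 and B. distachyon had 134, so a fixed distance of 100 kb is a different requirement in each genome.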

How the data were processed

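DNaseI-seq lists of Z. mays bundle sheath and whole leaf were analysed, with 2 samples each combined by the authors. Per the methods of the study and the submitters' processing notes, the authors mapped reads with Bowtie2 to B73 RefGen_v3 (AGPv3), removed reads of low mapping quality, called DHSs with MACS2 and set their number by the irreproducible discovery rate. A gap between listed DHSs can therefore hold sequence to which reads could not be assigned. The deposited DHS lists give a fold enrichment (a ratio, column 7), a score, the caller's −log10 p-value and a q-value on the same scale, and a summit. The deposited DGF lists give the authors' Wellington score on pooled reads. The study describes removing DGFs with a model of DNaseI cutting bias built from deproteinized DNA. Whether the Z. mays lists used here had passed that filter is not stated, so they may include DGFs that reflect cutting bias. Of the whole-leaf DGFs, 1001 of 79378 lay outside every union interval and were not counted. The deposited lists of tissue-enriched DGFs hold the authors' own comparison and were not used, and the deproteinized DNA was not analysed here. Reads per sample are not in the lists. The study gives a read total for Z. mays whole leaves and refers to a supplement for quality metrics. Neither was used here, so precision from depth was not assessed.

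DHSs were merged at an overlap of 1 bp, and tissue class, width, fold enrichment, DGFs overlapping by 1 bp, and position were taken per interval or DHS. Chromosome length was the largest position in any Z. mays list. Shares carry 95% Wilson intervals and medians order-statistic intervals, which cover counting error over listed regions only. Whether such an interval leaves out another value is given as a description, with no allowance for the number of values compared. Merging, distances and DGF counts were tested on simulated data and were equal to BEDTools 2.31.1 for 55665 intervals, 48547 bundle-sheath DHSs and 43539 whole-leaf DHSs. Computations used pandas 2.3.3, NumPy 2.4.6 and SciPy 1.17.1 in Python 3.11.15, with figures from matplotlib 3.10.9. Regions were named by rule: the most isolated of each chromosome, the 3 with the highest fold enrichment per tissue, the 3 widest, the 3 with the most DGFs, and those on either side of 100 kb. The runs of 5 and 4 intervals, the right neighbour on chromosome 8 and the region of 6511 bp on chromosome 9 were singled out after their values were seen. The isolated intervals, the groups and the measures were chosen with earlier results of these data known. Genes and sequences at the regions were not used here. The lists held 0 columns of other samples. Alternatives varied the distance, the merging, the chromosome ends, the list that defines distance, the comparison group, the part of each list kept, the overlap and the width.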

Additional observations from a re-analysis of the deposited data

How the results depend on the processing

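Across 14 alternative settings 76 values were recomputed, of which 50 stayed within the interval or range set for them, 24 moved and 2 reversed. Of 68 values that have a comparison, 61 kept the order of isolated and comparison intervals, 6 turned and 1 became equal. With the 50% of each list with the higher fold enrichment, sharing and width turned, at 54.6% against 53.1% shared and 1982 against 1856 bp for isolated against near intervals. That setting gave 1393 isolated intervals, median fold enrichments of 9.94 in bundle sheath and 12.6 in whole leaf, DGFs in 81.1% and 77.3% of their DHSs and 27.3% in the middle 20%. Why sharing and width turned in that setting was not tested. At 50 kb there were 2776 isolated intervals, 60.3% shared, of 1465.5 bp, with a DGF in 64.2% of bundle-sheath DHSs and 26.4% in the middle 20%. At 200 kb there were 46, 43.5% shared, of 931.5 bp, with a DGF in 48.8% of bundle-sheath and 61.5% of whole-leaf DHSs, against 54.4% in near whole-leaf DHSs. Merging intervals up to 1 kb apart gave 59.1% shared and 1370 bp. Distances in the whole-leaf list alone gave 848 isolated intervals of 1462.5 bp. Widths of 500 to 1500 bp gave 41.7% shared and a DGF in 47.3% of bundle-sheath and 35.8% of whole-leaf DHSs. The share of whole-leaf DHSs with a DGF, not resolved from the near share as reported, stood above it in 4 settings, which were 50 kb (58.1 against 54.4%), 200 kb, the higher 50% (77.3 against 75%) and the shortened bundle-sheath list (55.8 against 54.1%). The middle 40% of the chromosome held 61.7%, against 30.6% of near intervals.

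A pair of settings was chosen after seeing the data. With the bundle-sheath list shortened to the length of the whole-leaf list, 473 intervals were isolated and 55.0% of them shared, against 59.3% of near intervals. With only DHSs at whole multiples of the step, the median fold enrichment in bundle sheath was 8.03 for isolated and near DHSs alike. No paired analysis was possible because each tissue has 1 combined list, and for the same reason no replicate could be left out.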

Other observations

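In the whole-leaf list 1001 of 79378 DGFs (1.26%) lay outside every union interval of the Z. mays lists, of which 356 were 10 kb or more from one and 34 lay in the long gaps that border isolated intervals. In the bundle-sheath list 0 of 164252 DGFs did. The isolated intervals of bundle sheath only and of whole leaf only had a DGF of score -10 or stronger in 1 of 38 (2.63%) and 4 of 11 (36.4%) of the DHSs that carried any, against 17.9% and 56.5% in near intervals.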
